A study of Homo sapiens with 9 samples.

Results

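A375 is an established human melanoma cell line that carries an activating BRAF mutation and is widely used as a model of BRAF-driven melanoma. The transcriptome of its untargeted control cells is described here from the 3 libraries labelled EV control (EV 1, EV 2 and EV 3), chosen by that label out of 9 libraries in the series. In the other 6 libraries SPANX genes, which belong to the cancer-testis class, were knocked down with 1 of 2 constructs, and those libraries enter no value below. The labels give neither the meaning of EV nor any allele, drug or selection for these cells, and all RNA was taken on day 7. The libraries were made from total RNA with a kit that reads the 3' ends of polyadenylated transcripts. Nothing in the labels says that the 3 libraries came from separate cultures, so the spread between them may be partly technical. With 1 group there is no contrast to test, and every comparison below is between genes or between these 3 libraries.

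Melanoma cells move between a melanocytic state, in which MITF and SOX10 drive the enzymes of pigment synthesis, and undifferentiated or invasive states marked by AXL, NGFR and matrix genes. In BRAF-mutant cells the kinase cascade RAF, MEK and ERK is constantly on, and it raises its own feedback inhibitors of the DUSP and SPRY families together with cyclin D1 and FOSL1. A 3' library counts about as many reads for a short as for a long transcript, so levels were compared between genes as they stand. The rank after division by transcript length is given beside them where the order matters.

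The values are read counts that the authors scaled per library and rounded. They sum to 14383312, 13129033 and 13318094 in EV 1, EV 2 and EV 3, and correspond to 12872056, 14553788 and 12321353 recovered reads. Of 60420 gene IDs, 14185 stood above 0 in all 3 libraries, 40 in only 1 or 2 of them, and 46195 were listed at 0. A listed 0 reflects the authors' filtering or counting and does not show absence: EEF1G and ATP6V0C, which every cell uses, were also listed at 0. Among the genes above 0 the median level was 361 per library. A level of at least 1000 was reached by 3376 genes and one of at least 10000 by 152 genes.

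**Figure D1:**
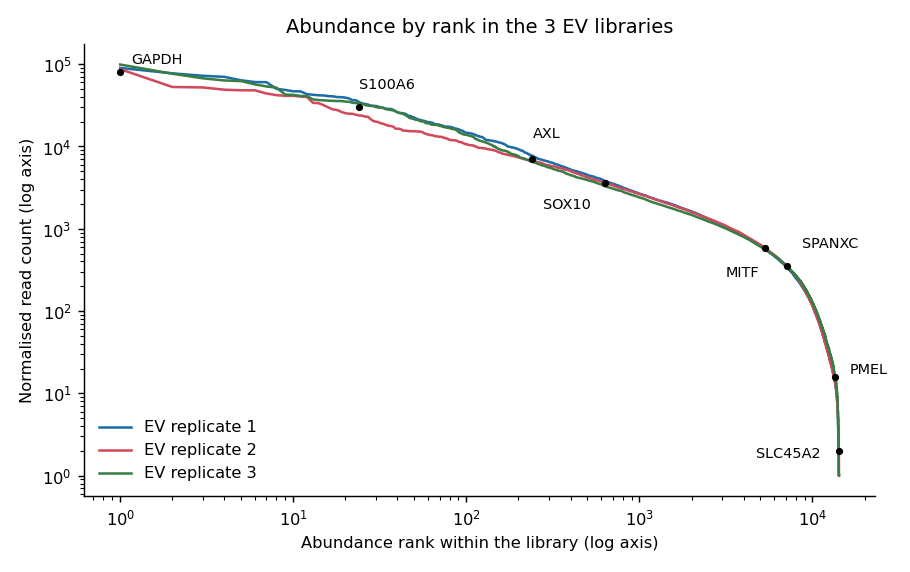
Normalised read count (log axis) against abundance rank within each library (log axis) for the 3 EV libraries, shown as lines. Black points mark the mean level, and its rank, of named genes: GAPDH ranks 1, SOX10 630, MITF 5322 and SPANXC 7167, and the EV 2 line lies below the other lines from rank 20 to rank 100.

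Housekeeping and biosynthetic transcripts led the ranking. The 100 most abundant genes held 17.7% ± 3.1 of the summed values (SD, n = 3), with 19.4% in EV 1, 14.1% in EV 2 and 19.4% in EV 3, and the 1000 most abundant held 49.2% ± 3.1 (SD, n = 3). Ribosomal proteins made up 45 of the 100 most abundant genes and 50 of the first 100 after division by length. The sum was therefore spread over many genes: 885, 1144 and 961 genes were needed to reach 50% of it in EV 1, EV 2 and EV 3. Protein-coding genes held 98.5% ± 0.5 (SD, n = 3).

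GAPDH, the glycolytic dehydrogenase, had the highest mean, with 90167, 87055 and 67443. It ranked first in EV 1 and EV 2, while RPS6, a protein of the small ribosomal subunit, ranked first in EV 3. RPS6 had 70202, 26300 and 99149, so the order of these 2 genes is not settled by 3 libraries. After division by length RPS6 ranked 1, S100A6 ranked 2 and GAPDH ranked 3. EEF1A1, which carries aminoacyl-tRNA to the ribosome, followed with 72389, 44113 and 62351.

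The chaperones HSP90AA1, HSPA8 and HSP90AB1 ranked 4, 7 and 14. HSP90AA1 was even across libraries, with 63753, 52212 and 51904, and HSPA8 had 60694, 52898 and 29733, lowest in EV 3. The glycolytic enzymes ENO1 and PKM ranked 10 and 11. The ferritin heavy chain FTH1, which stores iron, ranked 6 with 77488, 31749 and 35682, and stood 2.17-fold above both other libraries in EV 1. TPT1, a growth-related protein, ranked 8 with 46808, 17671 and 76722, lowest in EV 2. FTH1, EEF1A1, RPS6 and RPL13A have many near-identical pseudogene copies, and how reads shared with those copies were counted is not given in the sources used here.

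The most abundant transcript outside these classes was SERPINE2, a secreted inhibitor of thrombin and plasminogen activators, which ranked 5. It had 41908, 40007 and 63473, highest in EV 3. Vimentin (VIM), the intermediate filament of mesenchymal and melanoma cells, ranked 12 with 40971, 48215 and 33982, and ACTB ranked 15 with 38354, 41295 and 26114. LMNA, which encodes lamins A and C and is named by the study's title, ranked 32 with 25078, 33631 and 18400, an order of libraries that VIM and ACTB shared. MAGEA4, a cancer-testis antigen, ranked 57 with 23275, 14496 and 16940.

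The translation machinery took the largest share of any gene group described here. The 78 ribosomal protein genes above 0 held 9.41% ± 4.10 of the sum (SD, n = 3), from 4.81% in EV 2 to 12.7% in EV 3. By the same measure translation factors held 2.45% ± 0.25, cytoskeletal genes 2.45% ± 0.40, heat shock proteins and chaperones 2.01% ± 0.33 and glycolytic enzymes 2.0% ± 0.29 (SD, n = 3). Nuclear-encoded subunits of oxidative phosphorylation held 1.15% ± 0.40 (SD, n = 3). The genes of the mitochondrial genome held 0.00828%, 0.0162% and 0.0416% in EV 1, EV 2 and EV 3. How their reads were counted or filtered is not given in the sources used here, so these shares may not reflect levels in the cells.

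Messenger RNAs of ribosomal proteins and elongation factors typically begin with a C followed by a run of pyrimidines, the terminal oligopyrimidine tract through which mTOR signalling controls their translation. The starts of 6 abundant members and of 2 abundant genes of other classes are printed because the ribosomal protein group returns below among those that differed most between libraries. Each line gives 10 bases before and 20 from the RefSeq transcription start (GRCh38.p14), 5′ to 3′ on the gene's strand, and capitals mark the unbroken run of C or T that opens with a C at the start.
RPS6, chr9:19380217-19380246, minus strand: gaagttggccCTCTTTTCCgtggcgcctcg
RPL13A, chr19:49487598-49487627, plus strand: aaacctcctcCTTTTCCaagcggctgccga
RPLP1, chr15:69452808-69452837, plus strand: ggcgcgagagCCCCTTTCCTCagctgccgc
RPLP0, chr12:120201092-120201121, minus strand: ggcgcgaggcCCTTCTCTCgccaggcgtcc
EEF1A1, chr6:73521013-73521042, minus strand: cgtgaacgttCTTTTTCgcaacgggtttgc
TPT1, chr13:45341164-45341193, minus strand: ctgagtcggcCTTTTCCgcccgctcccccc
GAPDH, chr12:6535254-6535283, plus strand: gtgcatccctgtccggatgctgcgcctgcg
HSPA8, chr11:123062117-123062146, minus strand: ggaaaccggtCTCattgaactcgcctgcag

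A start with C and at least 4 further pyrimidines was found in 47 of the 63 ribosomal protein genes that have a RefSeq start (74.6%), in 12 of 24 translation factors, in 6 of 44 oxidative phosphorylation genes and in 2 of 21 glycolytic enzymes. Over all 27305 genes with a start the share was 5.14%, and over those above 0 here it was 7.48%. Only the gene's own strand was read, since the tract is part of the transcript. The match describes the letters at the annotated start and not the start used in these cells.

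All 12 lineage factors on the list stood above 0. SOX10, the neural crest and melanocyte factor, was the most abundant with 2278, 5817 and 2632, and it was 2.21-fold above both other libraries in EV 2. MITF, the master regulator of melanocytes, had 678, 606 and 472 and ranked 5322. PAX3, which acts upstream of MITF, had 150, 162 and 132, and TFAP2A, a partner of MITF at pigment gene promoters, had 253, 300 and 224. For MITF, PAX3 and TFAP2A the highest library was less than 1.5-fold above the lowest. TFE3, a relative of MITF, had 1475, 1949 and 1133, above MITF in every library. The neural crest factors SOX9, FOXD3 and SOX2 had means of 246, 135 and 176. S100B and S100A1, used as melanocytic markers, had means of 153 and 181.

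The pigment genes themselves did not follow the lineage factors in level. Of 20 on the list, 8 were listed at 0: TYR, TYRP1 and DCT, the melanin-forming enzymes, MLANA, SLC24A5, OCA2, GPR143 and TRPM1. PMEL, the fibril protein of melanosomes, had 19, 19 and 9, and SLC45A2, a melanosome transporter, had 1, 2 and 3. The most abundant members were CD63, with 6742, 4195 and 6626, and GPNMB, with 1871, 1344 and 1074. CD63 is also a lysosome and exosome protein, and GPNMB is made by several cell types. MYO5A, the motor that carries melanosomes, had 683, 1625 and 525. The labelled melanoma identity therefore rests in these libraries on SOX10, MITF, PAX3 and S100 genes, with TYR, TYRP1, DCT and MLANA at 0.

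The M-box, a motif bound by MITF in pigment gene promoters, was read as TCATGTG or its reverse complement CACATGA, which hold the E-box core CATGTG. In the 300 bases around the RefSeq start it stood in 7 of the 16 pigment genes that have an entry, in 3.59% of all 27305 genes and in 2.62% of genes above 0 here. Of the 7, TYR, TYRP1, DCT, SLC24A5 and GPR143 were listed at 0, and GPNMB and CD63 were above 0. Examples are printed to set a promoter with the motif and no listed transcript beside GPNMB, which has both, with 30 bases each on the gene's strand (GRCh38.p14) and the motif in capitals.
TYR, chr11:89177758-89177787, plus strand: aagaaaagtcagTCATGTGcttttcagagg
TYRP1, chr9:12693228-12693257, plus strand: gttggaagggaaTCATGTGctgatcaagtc
DCT, chr13:94479800-94479829, minus strand: gtgcactttgggTCATGTGctaatgatgag
GPNMB, chr7:23246640-23246669, plus strand: gtgagtcataagCACATGAgttgtaagagg

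A match is a description of letters and shows neither binding nor its absence.

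**Figure D2:**
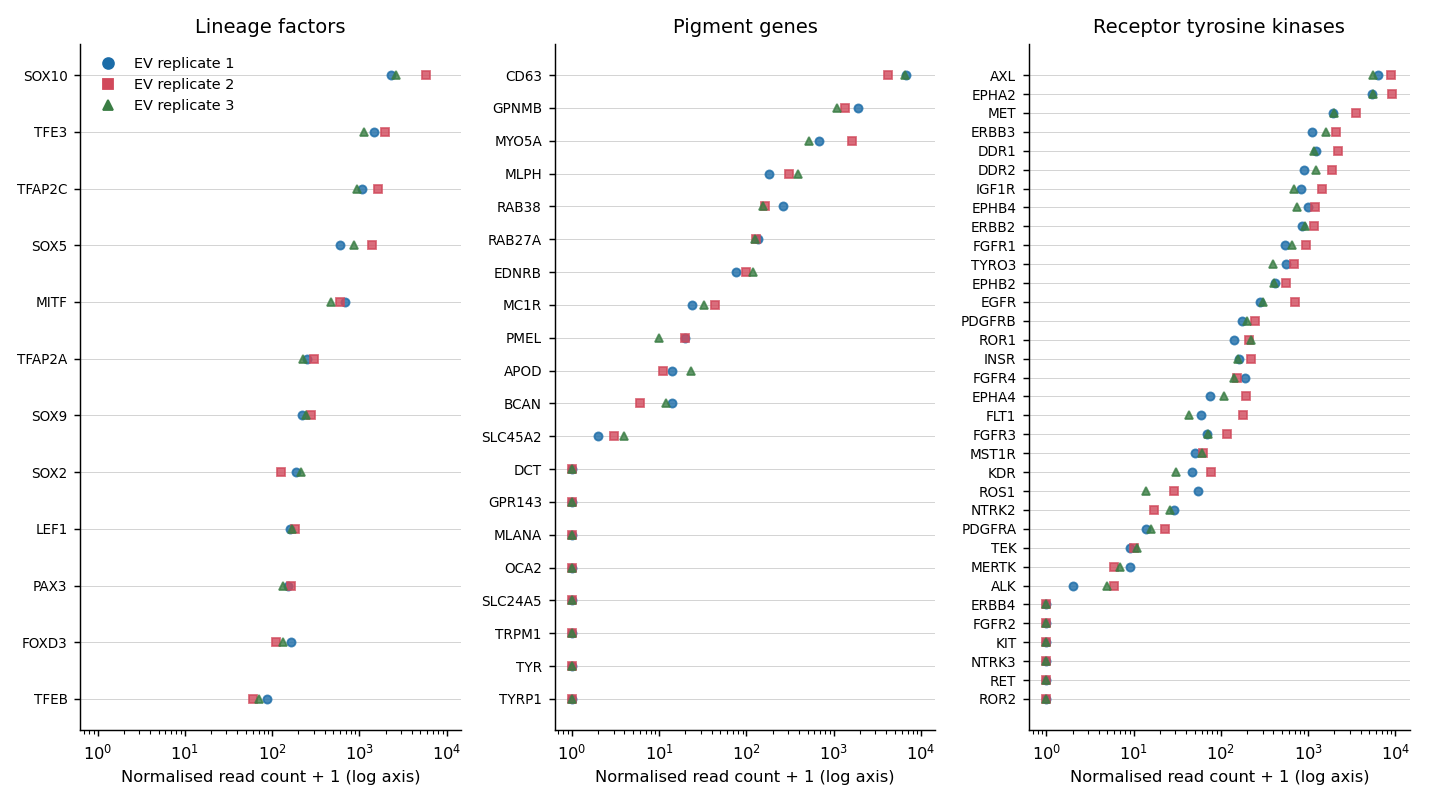
Normalised read count plus 1 (log axis) of the lineage factors, pigment genes and receptor tyrosine kinases, with 1 symbol per EV library. Points at the left edge of the axis are genes listed at 0 in all 3 libraries: 0 of 12 lineage factors, 8 of 20 pigment genes and, of the 7 kinases at 0 among 35, the 6 that are drawn.

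Genes of the undifferentiated and invasive state were present in number, with 29 of 30 above 0 and CDH1, the epithelial cadherin, listed at 0. THBS1, a matrix protein and YAP target, had 20498, 42044 and 13390. SPARC, a collagen-binding matrix protein, was even with 15463, 16464 and 18735. AXL, the receptor kinase that marks this state, had 6341, 8962 and 5561, higher than MITF in every library. NGFR, the neural crest nerve growth factor receptor, had 608, 1837 and 861, and CDH2, the mesenchymal cadherin, had 1255, 1815 and 1113. TNC, a matrix protein, had 1976, 6691 and 2417.

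The group was not uniform. ZEB1 had a mean of 465, ZEB2 of 170 and SNAI1 of 176, all repressors of epithelial genes, while TWIST1 had 91.7 and SNAI2 19.3. The YAP and TEAD targets CYR61 and CTGF had means of 1644 and 1032. EGFR had 278, 703 and 303, far below AXL.

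Of 35 receptor tyrosine kinases, 28 stood above 0. AXL and EPHA2 led, with EPHA2 at 5377, 9216 and 5518, and these 2 did not separate in order beyond the spread of the libraries. MET, the receptor of hepatocyte growth factor, came next with 1934, 3503 and 1996, followed by ERBB3, DDR1 and DDR2 with means of 1606, 1524 and 1332. KIT, the growth factor receptor of normal melanocytes, was listed at 0, as were ERBB4, FGFR2, NTRK3, RET and ROR2 among others. PDGFRB had a mean of 206 and PDGFRA of 16.7.

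All 20 genes of the RAS, RAF, MEK and ERK list stood above 0. BRAF itself had only 249, 459 and 264 and ranked 7452, while NRAS had 1796, 1529 and 2271. The kinases MAP2K1 and MAP2K2 had means of 1560 and 1968, and MAPK3 had 668. BRAF was thus the least abundant of the kinases named here, and it ranked 10293 after division by length. An mRNA level says nothing of kinase activity.

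The most abundant outputs of the cascade were higher than its kinases, but the levels of the lists overlapped. The median level was 1328 over the output genes and 995 over the RAS, RAF, MEK and ERK list. DUSP5, SPRY1, SPRY4, SPRED2, ETV1, ETV5 and EPHA4, all on the output list, were below MAP2K1 and MAP2K2 in every library. PHLDA1 had 7679, 9548 and 10313, and CCND1, which encodes cyclin D1, had 6699, 11816 and 5547. The phosphatase DUSP4 had 4344, 8363 and 6598 and DUSP6 had 1571, 2088 and 2035. SPRY2, a feedback inhibitor, had 1903, 2354 and 2181, and the ETS factors ETV4 and ETV5 had means of 2424 and 1075. FOSL1, an AP-1 subunit, had 3042, 6609 and 2739, highest in EV 2. In contrast the immediate early genes FOS and EGR1 had means of 68.7 and 173, and MYC had 286, 318 and 377.

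Among other oncogenes, CTNNB1, MCL1, RAC1 and CDK4 had means of 5702, 5634, 5312 and 4634. MDM2, a ubiquitin ligase, was even with 2368, 2469 and 2364. TERT, the catalytic subunit of telomerase, had 40, 51 and 55. MYCN and CCND2 were listed at 0, and the survival gene BCL2A1 had 9, 5 and 14.

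Among tumour suppressors, CDKN2A, which encodes p16 and p14ARF, had 93, 28 and 62 and ranked 11355, and its neighbour CDKN2B was listed at 0. MTAP, which lies beside them on chromosome arm 9p, had 3104, 3616 and 3429. CDKN1A, which encodes the p21 inhibitor of cyclin-dependent kinases, had 5615, 3841 and 3637. RB1, NF1 and ARID1A had means of 1378, 1325 and 1265. In all, 22 of 23 listed suppressors stood above 0.

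Of the SPANX genes, the targets of the study, 2 stood above 0. SPANXC had 402, 148 and 512 and SPANXD 103, 27 and 97, both lowest in EV 2. The mean of SPANXC lay near the median level of 361 over genes above 0, and SPANXD lay below that median in every library. The other 8 SPANX genes in the files were listed at 0. Several family members are near-identical, so reads shared between those may have been left out or given to 1 copy. That need not hold for all 8 at 0, which include SPANXN1, SPANXN2, SPANXN3, SPANXN4 and SPANXN5. Of the other cancer-testis antigens, 17 of 34 in the files were above 0, including PAGE5, MAGEC2 and MAGEA12 with means of 3006, 2414 and 1973.

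Markers of other cell types were checked in the same files. Of leukocyte markers 7 of 8 were listed at 0, with LYZ at 220, 143 and 263, and the 3 haemoglobin genes were listed at 0. VWF and CDH5 of endothelium, EPCAM, CDH1 and KRT19 of epithelium, and KRT5, KRT1, TP63 and DSG3 of keratinocytes were also at 0. The keratins KRT18 and KRT8 had means of 7654 and 1162, KRT10 had 1459 and KRT14 298. Of fibroblast markers 6 of 8 were above 0, and 2 of them reached a mean of 100. COL3A1 and THY1 were listed at 0, while COL1A1 had 83, 106 and 90, LUM 174, 32 and 96, and PDGFRB 172, 246 and 199. Of the Schwann cell markers, which neural crest cells share in part, 2 of 3 were above 0 and MBP was at 0. The part of other cells in any value was not tested.

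The 3 libraries differed from one another far beyond counting error. Over the 10437 genes with a mean of at least 100, the median coefficient of variation (CV) was 24.2%, against 4.12% from counting alone. The highest library was at least 2-fold above the lowest for 2578 genes (24.7% of the 10437), on value plus 1. EV 2 stood apart: EV 2 differed at least 2-fold from EV 1 in 1578 genes and from EV 3 in 1849, while EV 1 and EV 3 differed so in 388. Without EV 2 the count was 409, over genes whose mean in the other 2 libraries was at least 100. Pearson's r of log2 values across all genes above 0, which are not independent replicates, was 0.95, 0.97 and 0.94 for EV 1 with EV 2, EV 1 with EV 3 and EV 2 with EV 3.

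EV 2 was at least 2-fold below both other libraries for 595 genes (5.7%) and above both for 368 (3.53%). The same counts were 99 (0.949%) below and 23 (0.22%) above for EV 1, and 24 (0.23%) below and 128 (1.23%) above for EV 3.

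The differences followed transcript length. The genes were put into 5 groups of nearly equal size by length. In the shortest group, with a median length of 1459 bases, the median log2 distance from the gene's own mean over the libraries was 0.29 in EV 1, -0.41 in EV 2 and 0.11 in EV 3. In the longest group, with a median of 7690 bases, it was -0.19, 0.40 and -0.20. Across 10424 genes with a length, Spearman's rho between length and this distance was -0.56, 0.63 and -0.34, given as a description since all genes share the same 3 libraries. Of the shortest group 40.3% differed at least 2-fold, of the middle group 13.3% and of the longest 37.6%. With the length trend removed from each library, 1452 genes (13.9%) differed at least 2-fold. RNA integrity and fragment size are not given in the labels, and their part in this trend was not tested.

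**Figure D3:**
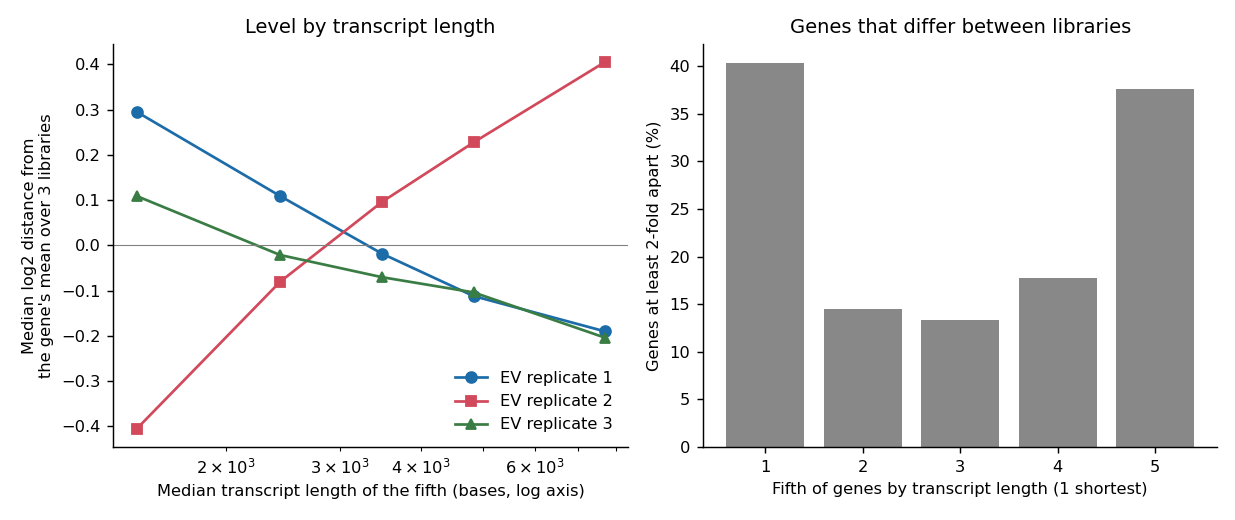
Left, the median log2 distance of each EV library from the gene's mean over the 3 libraries, for 5 groups of genes by transcript length (log axis); EV replicate 2 runs from -0.41 to 0.40 while replicates 1 and 3 run the other way. Right, bars give the percent of genes in each group whose highest library is at least 2-fold above the lowest, 40.3% in the shortest, 13.3% in the middle and 37.6% in the longest.

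Ribosomal proteins differed together. All 78 members of mean at least 100 were lowest in EV 2, as were 35.2% of all 10437 genes. Of the 78, 66 differed at least 2-fold (24.7% of all genes), and 56 were at least 2-fold below both other libraries in EV 2 (5.7%). Their median log2 distance was 0.40, -0.90 and 0.53 in EV 1, EV 2 and EV 3, against 0.01, 0.05 and -0.06 over all genes. RPS27A, made as a fusion with ubiquitin, had 36546, 7700 and 53716. RPL9 had 18584, 3742 and 27874 and RPS29 had 5613, 1198 and 8922. These transcripts are short, with a median of 1148 bases, and with the length trend removed 33 of 78 differed at least 2-fold, beside 13.9% of all genes, and the median in EV 2 was -0.40.

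Nuclear-encoded subunits of oxidative phosphorylation, also short with a median of 1210 bases, behaved alike. Of 54 members, 44 differed at least 2-fold (24.7% of all genes), 50 were lowest in EV 2 (35.2%) and 35 were at least 2-fold below both others there (5.7%). COX7B, a subunit of cytochrome c oxidase, had 4627, 858 and 7175, and ATP5E, a subunit of ATP synthase named after its values were seen, had 6814, 1717 and 10560. ATP5B, the longer catalytic subunit, had 17555, 15202 and 11720, with EV 2 in between. After removal of the length trend 17 of 54 differed at least 2-fold, beside 13.9% of all genes.

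Other short transcripts named by their distance below both libraries in EV 2 were TMEM256, with 774, 119 and 838, MYEOV2 with 1655, 263 and 1614, ROMO1 with 4182, 779 and 3897 and USMG5 with 6119, 1126 and 9733. ROMO1 and USMG5 encode small mitochondrial membrane proteins. SPANXC, with a length of 387 bases, belonged with them, and the 3.44-fold range of its values became 1.25-fold once the length trend was removed.

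Long transcripts lay on the other side. MUC5B, a gel-forming mucin, had 91, 404 and 99, COL5A3, a collagen chain, had 125, 567 and 150, and SPEN, a large nuclear repressor, had 507, 1983 and 527. SRCAP, a chromatin remodeller, and ALMS1, a centrosome protein, were likewise highest in EV 2 with 65, 244 and 52 and with 206, 727 and 148. After removal of the trend these 5 genes kept folds between 2.54 for SPEN and 3.25 for COL5A3. VIM-AS1, antisense to vimentin, had 103, 502 and 129 although its transcript is short (1351 bases). The sources used here do not say whether counting used strand, so its reads and those of VIM cannot be told apart.

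Matrix, adhesion and invasive state genes were shifted the same way. Of 40 matrix and adhesion genes 34 were highest in EV 2, as were 43.9% of all genes. Of the 40, 19 differed at least 2-fold (24.7% of all genes) and 8 were at least 2-fold above both others there (3.53%). Of 26 invasive state genes the counts were 22, 9 and 8, with THBS1, TNC, NGFR, EGFR and FOSL1 among the 8. The 9 are 34.6% of that list, beside the same 24.7% of all genes. The median length of the matrix group was 4795 bases. With the trend removed 8 of 40 and 5 of 26 differed at least 2-fold, beside 13.9% of all genes. SOX10, of 2879 bases, had a 2.55-fold range before and 2.69-fold after removal.

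**Figure D4:**
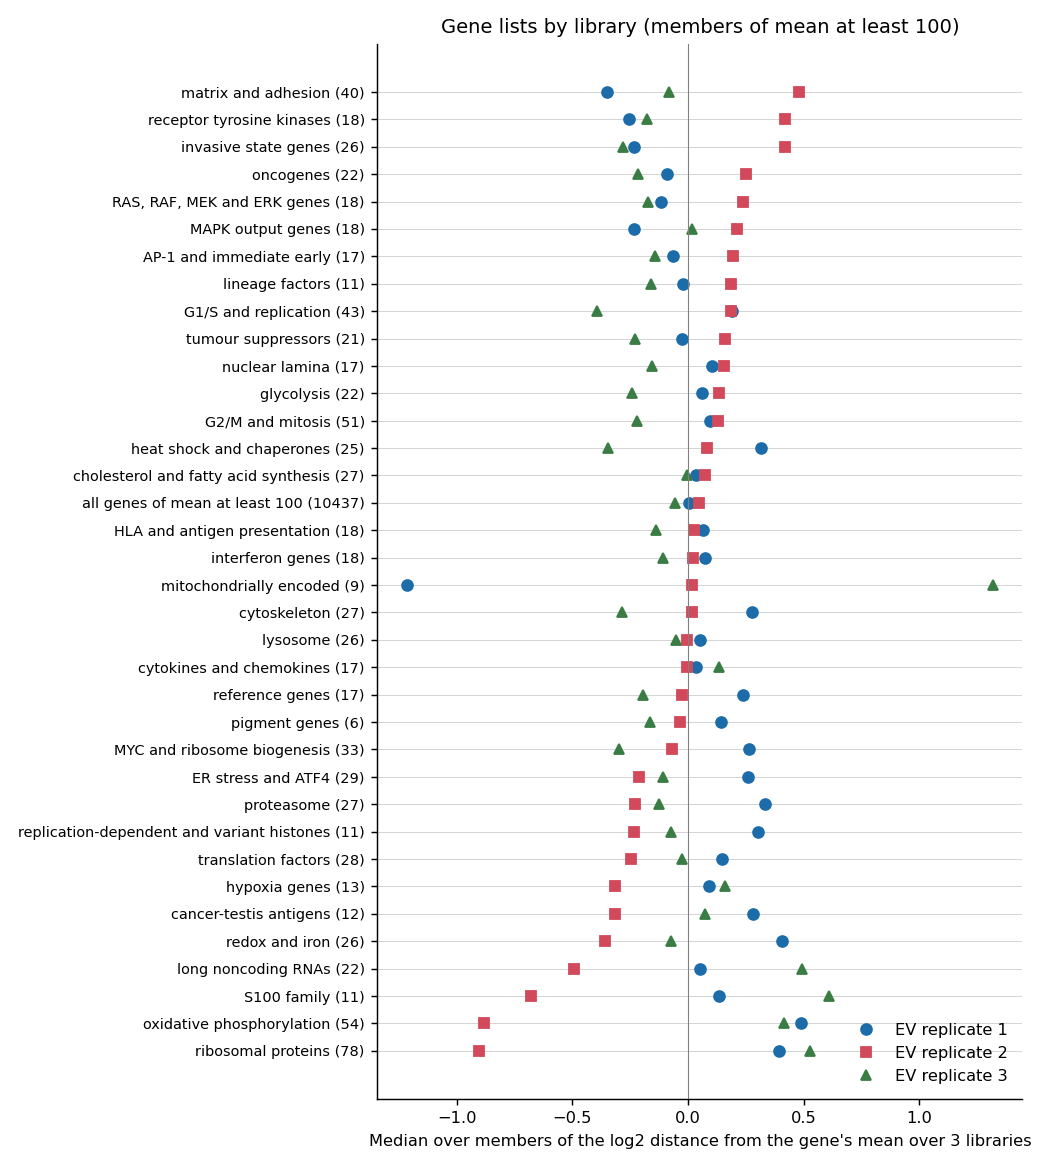
For most gene lists with at least 5 members of mean at least 100 (their number in brackets), the median over members of the log2 distance from the gene's mean over the 3 EV libraries, with 1 symbol per library. Ribosomal proteins and oxidative phosphorylation lie lowest in EV replicate 2 (-0.90 and -0.88), matrix and adhesion genes highest there (0.48), and mitochondrially encoded genes run from -1.22 in EV replicate 1 to 1.32 in EV replicate 3.

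Some differences did not follow length. The 9 mitochondrially encoded genes of mean at least 100 were all highest in EV 3, as were 26.2% of all genes, and 8 of the 9 were lowest in EV 1, as were 26.9% of all genes. MT-ND4, a subunit of complex I, had 96, 397 and 940, a 9.7-fold range. MT-ATP6 had 72, 212 and 597 and MT-CO3 124, 174 and 582. The ribosomal RNA MT-RNR2, with 383, 278 and 891, was the exception and lowest in EV 2. All 9 differed at least 2-fold with the length trend removed, and their summed level stayed under 0.05% of each library.

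MALAT1, a nuclear noncoding RNA, had the widest range of all named genes, with 6928, 2989 and 35688, and stood 5.15-fold above both others in EV 3. GAS5, the host of small nucleolar RNAs, had 5213, 2279 and 11532, and NEAT1, the scaffold of paraspeckles and named after its values were seen, had 876, 2355 and 4621. Of 22 listed noncoding RNAs 13 differed at least 2-fold (24.7% of all genes), and 11 did so after removal of the trend (13.9%). In the group 17 were lowest in EV 2 (35.2% of all genes) and 10 were at least 2-fold below both others there (5.7%). In EV 3, 15 were highest (26.2%) and 2 were at least 2-fold above both others (1.23%). MIR17HG, the host transcript of a microRNA cluster, had 77, 86 and 460, and GOLGA8A, a golgin gene with near-identical copies, had 188, 344 and 1144.

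IL8, the chemokine now named CXCL8, had 326, 195 and 1608, and CD58, an adhesion ligand of T cells, had 313, 206 and 1165. Of 17 cytokines and chemokines of mean at least 100, 5 were highest in EV 3, near the 26.2% of all genes, and 6 each in EV 1 and EV 2. In EV 3, 2 of the 17 were at least 2-fold above both others (1.23% of all genes), IL8 among them. CXCL1 had 753, 527 and 876, and TGFB1 had 1553, 2579 and 2035. COL12A1, a fibril-associated collagen, was lowest in EV 3 with 892, 1101 and 210, as was PRKDC, the DNA-dependent protein kinase, with 6418, 10470 and 2336.

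EV 1 was apart in few genes. LENG8 had 354, 1580 and 1737, complement C3 had 358, 1633 and 1440, COL7A1 had 86, 351 and 563 and GABRE had 20, 83 and 244, each lowest in EV 1. MMP3, the stromelysin that degrades matrix, had 346, 119 and 57, highest in EV 1.

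The 4 genes farthest above both other libraries in EV 1 were all genes of striated muscle. ACTA1, skeletal muscle actin, had 354, 83 and 54, TTN (titin) had 3062, 764 and 449, NEB (nebulin) had 389, 107 and 64, and MYH7, a myosin heavy chain, had 286, 85 and 50. A list of 34 striated muscle genes was therefore written after these values were seen, and its values are a description. Of 33 in the files 18 were above 0, all 18 were highest in EV 1, and 16 were at least 2-fold above both others. Of the 10437 genes of mean at least 100, 3128 were highest in EV 1 and 0.22% were at least 2-fold above both others there. The 18 include the 4 genes that prompted the list, and only those 4 reach a mean of 100. The creatine kinase CKM had 171, 53 and 36, and desmin (DES) had 130, 32 and 23. The factors MYOD1 and MYOG, which set up the muscle programme, were listed at 0, as were 13 other members.

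The median ratio over the 18 genes was 3.40 for EV 1 over EV 2 (range 1.75 to 5.59) and 5.69 for EV 1 over EV 3 (range 1.44 to 9), against medians of 0.962 and 1.05 over all genes. The 18 genes summed to 5369, 1434 and 897, which is 0.0373%, 0.0109% and 0.00674% of the libraries. They were thus above 0 in every library and in nearly the same order of libraries, EV 1 above EV 2 above EV 3, for 15 of 18. Where these reads came from was not tested.

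**Figure D5:**
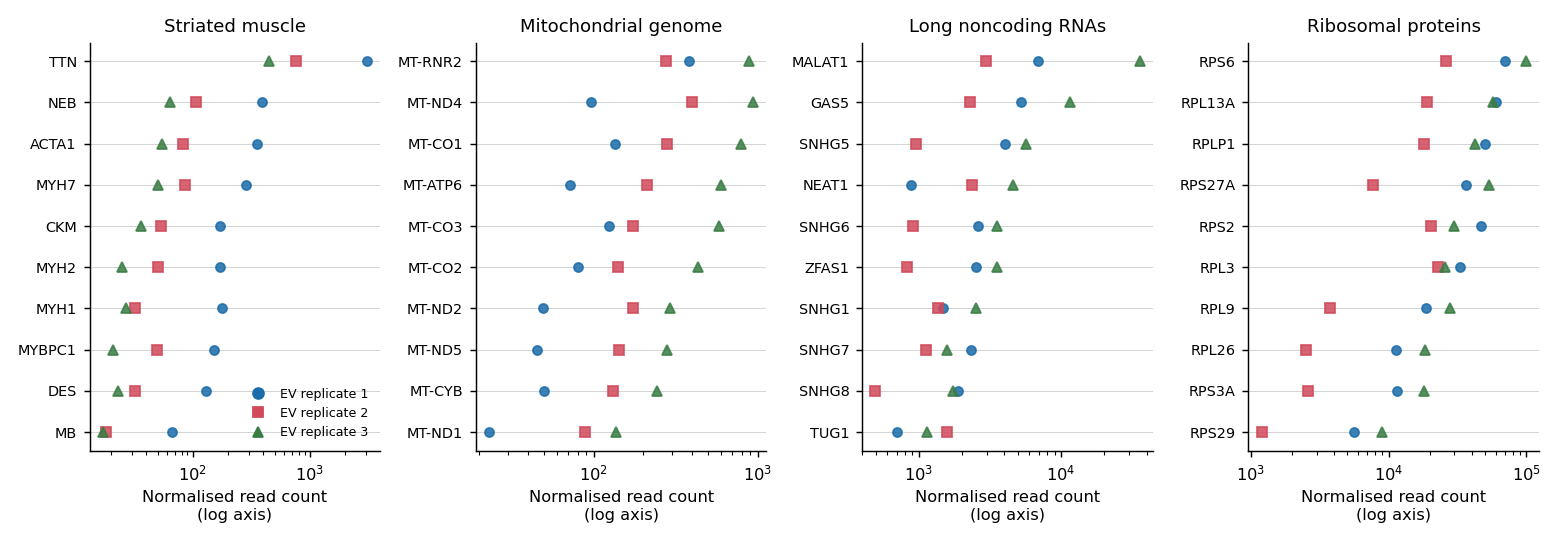
Normalised read count (log axis) in each EV library for 10 striated muscle genes, 10 mitochondrially encoded genes, 10 long noncoding RNAs and 10 ribosomal proteins, with 1 symbol per library. The muscle genes shown are all highest in EV replicate 1, the mitochondrial genes highest in EV replicate 3 and the ribosomal proteins lowest in EV replicate 2; the genes shown were chosen with their values known.

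Groups lay on both sides of the background of 24.7%. The share that differed at least 2-fold was 42.3% of 26 redox and iron genes, 37.0% of 27 proteasome genes, 35.3% of 51 genes of G2/M and mitosis, 33.3% of 27 cytoskeletal genes and 32.1% of 28 translation factors. Of 26 lysosomal genes only 2 did so, with PSAP, the precursor of the saposins, at 8810, 8274 and 8448. The counts were 3 of 29 for the ER stress and ATF4 genes and 3 of 33 for MYC targets and ribosome biogenesis. CALR, an ER chaperone, had 13675, 14010 and 13437, and PABPC1, the poly(A)-binding protein, 28734, 28210 and 27387.

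Among genes of mean at least 1000 the smallest spread belonged to SPG20, which encodes spartin, with 1721, 1712 and 1716 and a CV of 0.263%. KDSR, a sphingolipid enzyme, had 1435, 1448 and 1459, and ZC3H7A 1229, 1248 and 1231. The counting CV of SPG20 was 2.4%, so a spread this small is finer than its read depth can measure. The common reference genes were less even: GAPDH had a CV of 15.1%, ACTB 22.8% and B2M 60.1%, with B2M at 13000, 5342 and 21163. Of 17 reference genes listed, 5 differed at least 2-fold (29.4%), near the background.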

How the data were processed

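Per the labels' protocols, total RNA of A375 cells was made into 3' mRNA libraries with a forward QuantSeq kit and sequenced single-end. The submitters' processing notes name STAR, featureCounts, Subread and edgeR without versions and the build hg19. The deposited values are a score: the authors scaled each library's read counts and rounded them, and neither scale nor filter is given in the sources used here. Low values are spaced in steps of 1.117, 0.9021 and 1.081, which were taken as the worth of 1 read in EV 1, EV 2 and EV 3. With them, 99.8% and 99.9% of values up to 1000 in EV 1 and EV 3 are rounded whole reads; in EV 2, where the step is under 1, all values are so by construction. For repeated gene IDs (1405) the maximum row was kept. Spread was taken as the highest over the lowest library on log2(value + 1), pseudocount 1, for genes of mean at least 100, and as the CV beside 1 over the square root of the mean reads. Lengths are the longest basic transcript in GENCODE 29 (GRCh38), used for names, lengths and types only, and the length trend was a natural spline with 4 degrees of freedom (Python 3.11.15, pandas 2.3.3, numpy 2.4.6, patsy 1.0.2). On simulated libraries with 200 genes of 10436 changed 4-fold, 198 were called and 2 others. The simulation set a CV of 10% beyond counting, recovered as a median of 7.9%, and no length trend. The EV libraries had a median of 23.6% by the same measure, so these counts give no error rate for them. Named genes were the 20 highest, members of the lineage, kinase, oncogene and suppressor lists, up to 4 others per list, those of largest and smallest spread, and SPANX and LMNA. Members and lists were chosen with earlier results of these data known. Alternatives were other minimum means, pseudocounts and scalings, division by length, summed repeated rows and leaving out each library. Some genes are not reported here. Knockdown libraries were left out because only the control cells are described.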

Additional observations from a re-analysis of the deposited data

How the results depend on the processing

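Several values changed in size under the alternatives, and some group medians changed sign. With the length trend removed, the median log2 distance of the S100 family in EV 2 went from -0.68 to 0.05. The 100 most abundant genes held 23.4% with repeated rows summed, which counts identical copies again, and 28.5% with values divided by length. The 2-fold count of 2578 genes became 1446 at a minimum mean of 500, 1452 with the length trend removed, 1604 with median in place of longest transcript lengths (chosen after seeing the data), and 409 to 1859 with 1 library left out, the lowest without EV 2 and 1555 without EV 3. Excess CV, 23.6%, was 13.9% to 22.9% with 1 library left out, lowest without EV 2, and up to 24.2% under the other settings. The mean correlation, 0.95, was 0.91 among genes of mean at least 100. Genes beyond both other libraries numbered 122 in EV 1, 963 in EV 2 and 152 in EV 3. At a minimum mean of 20 they became 311 in EV 1 and 404 in EV 3, at 500 they became 41, 615 and 49, and with the length trend removed EV 2 had 343. Leaving a library out gives no such count, as both others are needed. Of 1404 alternative levels of 234 named genes, 11 moved by more than 1 SD, all by summing repeated rows. The settings that leave out 1 of the 3 libraries could not count here. Dropping 1 of 3 values cannot move their mean by as much as 1 SD of the same 3. Leaving out a library moved the mean over 1.5 times for 8 genes without EV 1 (ACTA1 from 164 to 68.5), 12 without EV 2 (ALMS1 from 360 to 177) and 19 without EV 3 (MALAT1 from 15202 to 4959). No paired analysis was possible because a single group is described and no test was made. Depth (12321353 to 14553788 reads) limits genes of mean under 10 (293 genes); listed zeros carry no upper limit, since the filter is not given.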

Other observations

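The antigen presentation genes included class I and class II components. B2M, the light chain of class I molecules, had 13000, 5342 and 21163. CD74, the invariant chain of class II molecules, had 4826, 6646 and 3824, and HLA-DRA and HLA-DRB1, named after their values were seen, had means of 1496 and 388. CIITA, the factor that switches class II genes on, had 317, 569 and 176. Of the 8 leukocyte markers 7 were listed at 0 in the same libraries. Interferon genes were above 0 for 28 of 30, led by IFITM3 with 2630, 1847 and 1987, while CXCL10 and IFI27 were listed at 0.

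Of 32 cytokines and chemokines 25 were above 0. TGFB1 ranked highest with a mean of 2056, and IL24, a cytokine made by melanocytes, had 1334, 606 and 477, highest in EV 1. LIF had 459, 1111 and 951 and IL11 873, 441 and 479. IL6, TNF and CCL5 were listed at 0. Fatty acid synthesis was led by FASN, with 7085, 12955 and 5226, and by SCD, with 3670, 4336 and 4471. In the S100 family 13 of 18 were above 0, led by S100A6 with 31131, 16457 and 42718 and S100A4 with 7389, 4268 and 16218, and of the 11 of mean at least 100, 10 were highest in EV 3 (26.2% of all genes) and 10 lowest in EV 2 (35.2%). Their median log2 distance in EV 2 was -0.68 and their median length 856 bases. With the length trend removed that median was 0.05. At least 2-fold differences were then found in 4 of the 11, against 8 before removal, beside 13.9% and 24.7% of all genes.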
